A study of Mus musculus with 35 samples.

Results

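The guanylate-binding proteins described here are the 9 genes Gbp2, Gbp3, Gbp4, Gbp5, Gbp6, Gbp7, Gbp8, Gbp9 and Gbp10, found by symbol among 53379 genes of a count table. RNA was sequenced from myeloid-derived suppressor cells (MDSC) of wild type C57BL/6 mice, all female and all carrying an orthotopic pancreatic tumor grown from the cell line T110299, which comes from a genetic mouse model of pancreatic cancer. Treated mice received 50 µg of poly(I:C) complexed with a polyethylenimine, in vivo-jetPEI, intravenously on day 18 and day 20 after tumor induction, and control mice are labelled untreated. As an artificial double-stranded RNA, poly(I:C) is detected by cytosolic sensors, which leads to the release of type I interferon. From each mouse, CD11b+ cells of spleen and tumor were enriched with magnetic beads and sorted into polymorphonuclear MDSC (PMN-MDSC, Ly6Clo Ly6G+) and monocytic MDSC (M-MDSC, Ly6Chi Ly6G-). Bulk tumor of untreated mice was lysed without sorting, and the mice were matched for age. Treated spleen PMN-MDSC and treated tumor M-MDSC had 3 libraries each, and every other group had 4. The M-MDSC group from treated tumors lost 1 library, which held 10 counts in all and 0 counts of the 9 genes.

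Guanylate-binding proteins are large GTPases that interferons induce, above all interferon-γ. They assemble on the vacuoles of intracellular parasites and on bacteria in the cytosol, help to break these open, and promote the activation of inflammasomes that sense their contents. In mice the genes lie in a cluster on chromosome 3 and another on chromosome 5, and some of the proteins carry a lipid anchor that places them on membranes. Transcription is driven through GAS elements, which respond to interferon-γ, through interferon-stimulated response elements (ISRE), where a complex with STAT2 and IRF9 binds, and by the factor IRF1. Macrophages and other myeloid cells are rich in these proteins after interferon exposure.

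On GRCm38, the chromosome 3 cluster runs on the plus strand through Gbp5 (chr3:142493978-142522344), Gbp7 (chr3:142530342-142550149), Gbp3 (chr3:142560026-142573209) and Gbp2 (chr3:142620602-142638008). The chromosome 5 cluster is on the minus strand, with Gbp8 (chr5:105014150-105139540), Gbp9 (chr5:105077630-105139539), Gbp4 (chr5:105115767-105139586), Gbp10 (chr5:105215699-105239533) and Gbp6 (chr5:105270702-105293698). Both clusters hold a further relative outside the 9, Gbp2b on chromosome 3 and Gbp11 on chromosome 5, the second annotated as a polymorphic pseudogene. The predicted gene Gm43302 (chr5:105214907-105293695) covers Gbp10 and Gbp6 and shares exons with both. Of the exonic bases of Gbp10, 53.7% belonged to no other gene, against 71.0% for Gbp6, 88.7% for Gbp7, 98.2 to 99.2% for Gbp4, Gbp8 and Gbp9, and 100% for Gbp2, Gbp3 and Gbp5. Of all stretches of 50 bases in the transcripts of Gbp10, 84.1% also occurred in transcripts of another gene, 73.3% in those of Gbp6. The share was 70.7% for Gbp6, 18.1% for Gbp8, 12.7% for Gbp7 and 1.4 to 8.0% for the remaining 5 genes. How the counting treated reads that fit several genes is not given in the sources used here, so the values of Gbp6 and Gbp10 are uncertain as a pair, and the sum of both with Gm43302 is given beside the tests of Gbp6.

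RefSeq promoter windows on GRCm38.p6, from 250 bases before to 50 bases after an annotated start, were found for 4 of the 9 genes, all of the chromosome 3 cluster. The ISRE was searched as GAAA, any 2 bases and GAAA, or on the opposite strand as TTTC, any 2 bases and TTTC, and the GAS element as TTCNNNGAA, which is its own reverse complement. An ISRE match was present in a window of all 4 of these genes, and in a window of 3.99% of 27025 mouse genes. Gbp3 has 2 windows, and the downstream one held no match. A GAS match was present in Gbp5 and Gbp7, in neither overlapping an ISRE match, and in 9.55% of all genes. The stretches below are shown because interferon signals reach these genes through such elements; they run 5′ to 3′ on the plus strand, with the matches in capitals. The ISRE of Gbp2 begins 59 bases before the start (chr3:142620596-142620621), though the annotation of GENCODE places this stretch at the edge of its first exon. In Gbp3, matches begin 45 and 39 bases before the start and overlap (chr3:142559991-142560022). Gbp7 holds GAS matches from 106 and 87 bases and an ISRE from 53 bases before its start (chr3:142530222-142530300). In Gbp5, the GAS matches begin 245 and 52 bases and the ISRE 165 bases before the start (chr3:142496684-142496898). The annotation of GENCODE places this stretch of Gbp5 inside the gene, downstream of its first base. A match of letters is a description and does not show that a factor binds there.
Gbp2: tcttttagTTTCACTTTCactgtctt
Gbp3: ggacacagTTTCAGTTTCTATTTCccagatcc
Gbp7: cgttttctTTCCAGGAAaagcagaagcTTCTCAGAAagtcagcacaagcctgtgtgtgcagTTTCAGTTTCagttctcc
Gbp5: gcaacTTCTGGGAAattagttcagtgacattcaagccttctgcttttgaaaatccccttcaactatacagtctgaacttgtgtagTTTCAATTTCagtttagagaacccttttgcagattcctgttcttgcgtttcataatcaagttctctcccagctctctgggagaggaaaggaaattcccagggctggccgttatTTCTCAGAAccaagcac

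The 30 MDSC libraries held 793070 to 4357105 counts and the 4 bulk tumor libraries 3771590 to 8886115. Libraries are named by the running number of their column in the deposited table. Marker genes of the labelled cell types were present, but PMN-MDSC from tumor stood apart from PMN-MDSC from spleen. Across 11 PMN markers, summed levels were 26165 to 100131 CPM (counts scaled to the total of the library) in PMN-MDSC from spleen and 1413 to 12685 CPM in PMN-MDSC from tumor. In 3 of the 4 untreated tumor libraries of PMN-MDSC, the summed 7 M markers (6448 to 8348 CPM) exceeded the summed PMN markers. All 5 macrophage markers (Adgre1, C1qa, C1qb, C1qc and Mrc1) were above 0 in every library, with sums of 44.6 to 763 CPM in MDSC from spleen, 1461 to 7721 CPM in MDSC from tumor and 110.4 to 207 CPM in bulk tumor. The part of these cells in the results below was not tested.

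Levels of the 9 genes differed widely, and Gbp2 made up the largest part in most groups. To compare genes, CPM was divided by the kilobases of exon that no other gene shares. On this per-length scale, the group means of Gbp2, which is recruited to parasite vacuoles, were 46.8 to 277 CPM per kb and the highest of the 9 genes in every group but untreated M-MDSC from spleen. There Gbp3 led with 52.8 ± 17.3 CPM per kb (SD, n = 4), against 46.8 ± 27.9 for Gbp2, a difference within the spread of either gene. Gbp7, which takes part in host defense against Listeria and mycobacteria, ranked next to Gbp2 in all 4 groups of PMN-MDSC, with 27.4 ± 9.57 to 92.2 ± 42.5 CPM per kb. Gbp3 ranked next to Gbp2 in the other groups, apart from the group it led. The lowest levels were those of Gbp10 in each of the 9 groups, from 0.0339 CPM per kb in untreated PMN-MDSC from spleen to 7.11 ± 4.73 in treated M-MDSC from spleen.

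**Figure D1:**
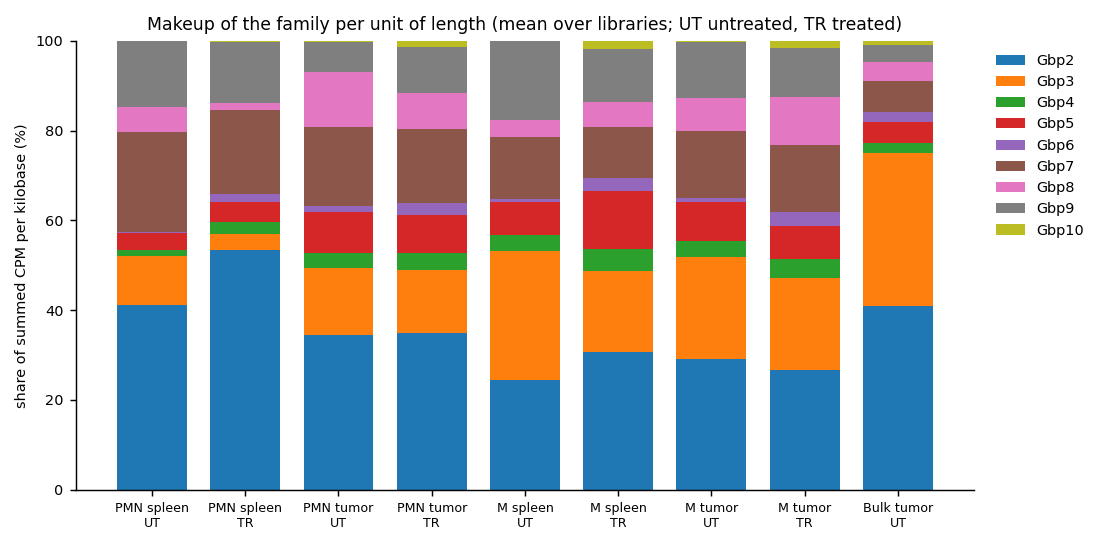
Mean share of each gene in the summed per-length level of the 9 guanylate-binding proteins (percent of summed CPM per kb), stacked, for each of the 9 groups. Gbp2 holds 24.3 to 53.3% of the sum in every group, and Gbp3 holds between 3.64% in treated PMN-MDSC from spleen and 34.1% in bulk tumor.

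The makeup of the family is given as shares of the summed per-length levels, which were not tested. In PMN-MDSC from spleen, Gbp2 held 41.1% ± 20.5 without and 53.3% ± 3.42 with treatment (SD, n = 4 and 3). In M-MDSC from spleen the corresponding shares were 24.3% ± 6.07 and 30.6% ± 3.36 (SD, n = 4 each). Gbp3 held 28.9% ± 0.467 of the sum in untreated M-MDSC from spleen and 18.2% ± 2.29 in treated ones. In PMN-MDSC from spleen its share was 11% ± 6.96 without and 3.64% ± 0.672 with treatment. Libraries of untreated PMN-MDSC and M-MDSC overlapped in their Gbp2 share in spleen (25.2 to 71.2% and 19.5 to 33.1%) and in tumor (31.4 to 37.2% and 24.5 to 35.4%), but not in their Gbp3 share in spleen (6.79 to 21.3% and 28.2 to 29.4%) or tumor (12.8 to 17.3% and 18.7 to 29.3%). The summed level itself was 148 ± 57.7 CPM per kb in untreated and 510.3 ± 272 in treated PMN-MDSC from spleen, and 182 ± 57.3 and 379 ± 113 in M-MDSC from spleen. In tumor, the sums were 232 ± 37.1 and 325 ± 16.7 CPM per kb for PMN-MDSC and 254 ± 60.2 and 313 ± 35.4 for M-MDSC. Bulk tumor stood at 193 ± 105 CPM per kb (SD, n = 4).

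**Figure D2:**
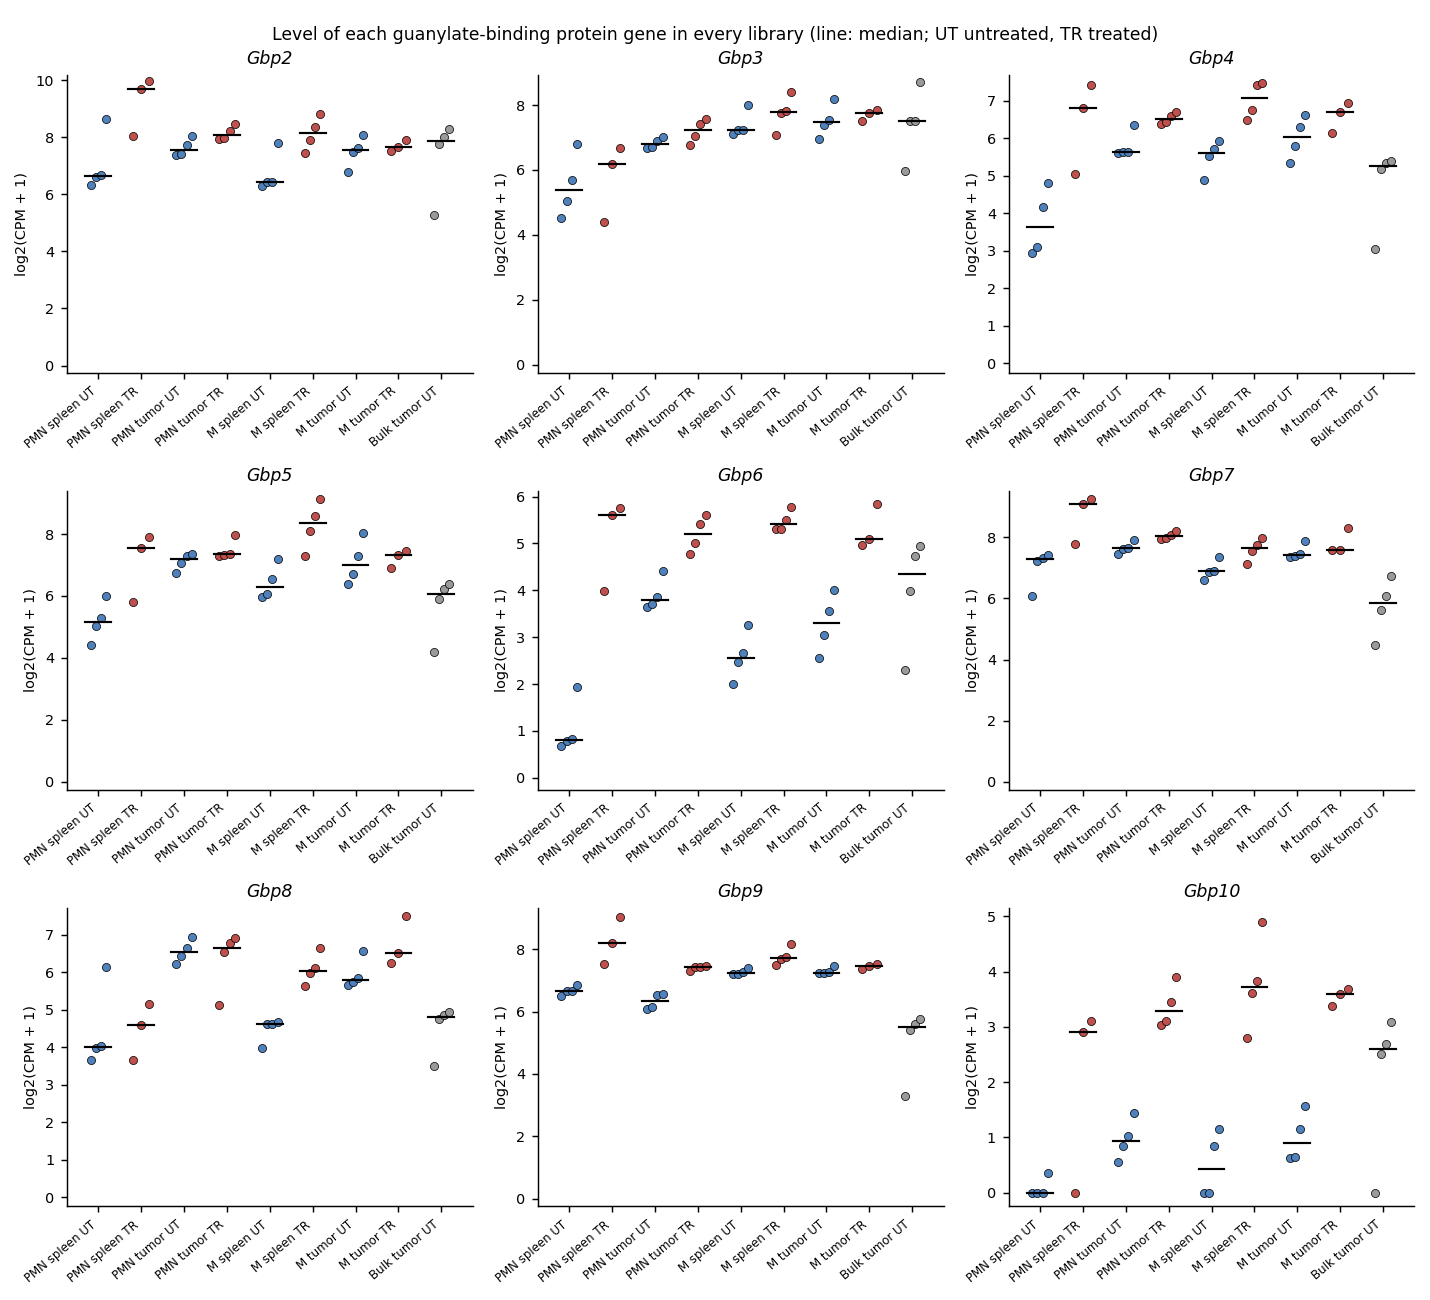
Level of each of the 9 guanylate-binding proteins, as log2(CPM + 1), in each of 34 libraries, by group; each point is 1 library, the line is the group's median, blue is untreated, red treated and gray bulk tumor. Gbp6 and Gbp10 are near the bottom of the scale in untreated PMN-MDSC from spleen (0.608 to 2.82 and 0 to 0.282 CPM), while Gbp2 spans 80.0 to 401 CPM there, the highest value being that of library 5.

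Ordered by mean CPM over the 9 groups, Gbp2, Gbp7 and Gbp9 were highest in treated PMN-MDSC from spleen, and Gbp3, Gbp4, Gbp5, Gbp6 and Gbp10 in treated M-MDSC from spleen. Gbp8 was highest in treated M-MDSC from tumor. Of 72 neighbouring pairs of groups in these orders, the libraries overlapped in 68, so most steps in the order were not larger than the spread. The pairs without overlap were Gbp2 in treated PMN-MDSC from tumor above treated M-MDSC from tumor, Gbp6 in untreated M-MDSC above untreated PMN-MDSC from spleen, and a pair of steps for Gbp9. Gbp9 without treatment was at 67.5 to 115 CPM in all untreated PMN-MDSC and 146 to 175 CPM in all untreated M-MDSC.

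Treatment in PMN-MDSC from spleen was followed by higher levels of 5 of the 8 genes tested. The difference was tested with edgeR's quasi-likelihood F-test, and a gene was called at an adjusted p-value (Benjamini-Hochberg over all genes tested) under 0.05. Higher calls made up 6.1% of 7261 genes, and calls in either direction 11.6%. Gbp6, which takes part in defense against bacteria, was at 2.82, 0.608, 0.776 and 0.727 CPM in untreated libraries and at 14.9, 52.7 and 47.6 CPM in treated ones. It passed the count minimum of the test, a mean of 25, only through the treated libraries (15 counts over the untreated and 210 over the treated), so it could pass only by differing. All treated libraries were above all untreated ones, and the log2 fold change was 4.77 ± 0.61 (SE), or 27.3-fold (adjusted p = 0.00368). With single libraries left out, the log2 fold change of Gbp6 ran from 4.55 to 5.64 where it was tested. Gbp4 stood at 27.1, 17, 6.60 and 7.64 CPM without and 32.2, 169 and 111 CPM with treatment, a log2 fold change of 2.81 ± 0.62 (adjusted p = 0.0245). Gbp9 was at 90.1 to 115 CPM in untreated and 185, 523 and 292 CPM in treated libraries, and rose by 1.72 ± 0.31 on the log2 scale (adjusted p = 0.0132).

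Gbp5, an activator of the NLRP3 inflammasome, and Gbp7 rose as well in PMN-MDSC from spleen. Gbp5 was at 37.8, 63.3, 20.6 and 32 CPM in untreated and 54.6, 238 and 188 CPM in treated libraries (log2 fold change 2.06 ± 0.51, adjusted p = 0.0337), and the lowest treated library lay below the highest untreated one. Gbp7 was at 159.6, 66.3, 171 and 149 CPM and at 217, 613 and 547 CPM (1.75 ± 0.40, adjusted p = 0.0255), without overlap. Gbp2 gave 101, 401, 80.0 and 97.5 CPM in untreated and 262, 1001 and 827 CPM in treated libraries. Its log2 fold change of 2.02 ± 0.66 did not pass (adjusted p = 0.0833), and untreated library 5, at 401 CPM, was above the lowest treated library. Without library 5 the change was 2.92 (adjusted p = 0.0115).

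In contrast, Gbp3 and Gbp8 showed no call in PMN-MDSC from spleen. Gbp3 was at 111, 50.5, 21.7 and 32 CPM in untreated and 19.8, 102 and 72.1 CPM in treated libraries (0.24 ± 0.64, adjusted p = 0.846). Gbp8 was at 69.8, 14.6, 11.6 and 15.3 CPM and at 11.6, 34.3 and 23 CPM (−0.30 ± 0.69, adjusted p = 0.828). For both, library 1 was the highest untreated library, and it also had the highest macrophage marker sum of the untreated group, 763 CPM against 263 to 479 CPM; treated libraries had 44.6 to 96.7 CPM. Without library 1, Gbp8 gave 0.74 (adjusted p = 0.311). Gbp10 was too low to be tested, with 1 count over the 4 untreated and 27 counts over the 3 treated libraries. The ratio of these counts per total was 45.5, with a 95% interval of 7.49 to 1862 that covers counting error only. Over the 7 genes tested that did not depend on 1 group for the count minimum, which leaves out Gbp6, 4 were called, with a median log2 fold change of 1.75, against 0.01 over all genes. By levels, 4 of the 8 genes tested, Gbp6 among them, had all treated above all untreated libraries, which 12.6% of all genes tested had. Besides the macrophage markers, summed PMN markers were 26165 to 49712 CPM without and 51523 to 100131 CPM with treatment, the 4 dendritic cell markers 21 to 36.7 and 0.501 to 4.89 CPM, and the 3 endothelial markers 28.7 to 72.3 and 12.4 to 22.3 CPM. Their part in the changes was not tested.

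The count in PMN-MDSC from spleen depended on single libraries: 1 gene (Gbp9) was called without library 25 or without library 29, where Gbp6 fell under the count minimum and was not tested, 2 without library 21, 3 without library 1 or 17, and 6 without library 5 or 9. The share of all genes called moved too. It was 8.33% without library 25, 4.18% without 29 and 4.96% without 21. Without library 1, 17, 5 and 9 it was 6.81%, 8.42%, 11.9% and 13.4%. With upper-quartile scaling, 35.6% of all calls were higher, against 52.5% in the main fit, and the same number of the 9 genes, 5, was called.

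In PMN-MDSC from tumor, treatment was followed by higher Gbp6 and Gbp9, and the other 6 genes tested were not called. Higher calls made up 2.29% of 8308 genes, and calls in either direction 3.36%. Gbp9 was at 92.9, 90.7, 67.5 and 70.7 CPM in untreated libraries and at 177, 159, 172 and 173 CPM in treated libraries. The groups did not overlap, and the log2 fold change was 1.0 ± 0.17, or 2.0-fold (adjusted p = 0.00838). Gbp6 was at 13.6, 20.2, 11.6 and 12 CPM and at 41.8, 31.1, 26.3 and 47.9 CPM, also without overlap (1.28 ± 0.27, 2.43-fold, adjusted p = 0.0300). Gbp10 had 8 counts over the untreated and 115 over the treated libraries, a ratio of 10.5 (95% counting interval 5.15 to 24.9).

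Gbp4 and Gbp7 were higher in every treated than in every untreated library of PMN-MDSC from tumor, yet neither passed the test. Gbp4 was at 48.1, 80.9, 48.0 and 48.5 CPM in untreated and 84.4, 94.8, 82.0 and 103 CPM in treated libraries (0.61 ± 0.21, adjusted p = 0.162). Gbp7 was at 174, 240.1, 196 and 199.5 CPM and at 267, 247, 291 and 254 CPM (0.31 ± 0.16, adjusted p = 0.337). The changes of Gbp2 (0.41 ± 0.21), Gbp3 (0.33 ± 0.19), Gbp5 (0.31 ± 0.22) and Gbp8 (−0.18 ± 0.33) were within overlapping groups. The median over the 8 genes was 0.37, against 0.01 over all genes. Of these 8, 4 had groups that did not overlap, which 8.12% of all genes tested had. The groups of Gbp10, which was not tested, did not overlap either. Gbp9 was called whichever library was left out. Gbp6 lost its call without library 3, 11, 19 or 23 (adjusted p from 0.0568 to 0.105), and without library 7 Gbp4 was called as well (0.87, adjusted p = 0.0307). The summed M markers were 4256 to 8348 CPM without and 1727 to 3156 CPM with treatment, and the 5 NK cell markers 0 to 3.11 and 3.32 to 9.48 CPM, a part that was not tested.

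M-MDSC from spleen showed higher Gbp4, Gbp5, Gbp6, Gbp8 and Gbp10 after treatment, and all 9 genes had a positive log2 fold change. Higher calls made up 9.96% of 8827 genes, and calls in either direction 19.4%. Gbp6 was at 5.31, 8.54, 4.52 and 3.01 CPM in untreated and 38.6, 44.5, 54.1 and 38.5 CPM in treated libraries, a log2 fold change of 3.03 ± 0.29, or 8.16-fold (adjusted p = 0.00014). Gbp10, whose product like that of Gbp6 acts against bacteria, was at 0, 1.22, 0 and 0.803 CPM and at 11.2, 28.8, 13.2 and 5.95 CPM. Its fitted change was 4.63 ± 0.74 (adjusted p = 0.00274), on 7 counts over the untreated and 193 over the treated libraries. Neither gene had overlapping groups, and both passed the count minimum only through the treated libraries.

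Gbp5 was at 92.5, 145, 61.6 and 65.5 CPM in untreated M-MDSC from spleen and at 276, 559, 382 and 156 CPM in treated ones (1.86 ± 0.41, 3.63-fold, adjusted p = 0.0133). Gbp4 was at 44.7, 60.2, 51.1 and 28.3 CPM and at 106, 176, 170.2 and 88.9 CPM (1.5 ± 0.29, 2.83-fold, adjusted p = 0.00625). Gbp8 was at 23.4, 24.4, 23.6 and 14.9 CPM and at 61.7, 68.1, 99.7 and 48.4 CPM (1.64 ± 0.25, 3.11-fold, adjusted p = 0.00179). Each of the 3 had all treated libraries above all untreated ones. Macrophage marker sums, which stood beside the Gbp8 values of PMN-MDSC from spleen, were 194 to 259 CPM without and 189 to 327 CPM with treatment here. Treated library 30 stood apart in lymphocyte markers, with NK cell markers at 146 CPM (others 6.86 to 10.4), T cell markers at 42.9 CPM (others 2.47 to 3.46) and B cell markers at 102 CPM (others 9.75 to 16.2). Without it Gbp4, Gbp5, Gbp6, Gbp8 and Gbp10 were all called. Endothelial marker sums were 20.9 to 29.2 CPM without and 117 to 277 CPM with treatment, and M marker sums 5102 to 7813 and 2886 to 4282 CPM, and the part of either in these changes was not tested.

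The other 4 genes of M-MDSC from spleen did not pass, and 3 of them had an adjusted p under 0.1. Gbp2 was at 76.5, 223, 85.9 and 85.7 CPM in untreated and 242, 450.1, 326 and 174 CPM in treated libraries (1.28 ± 0.41, adjusted p = 0.0560). Gbp9 was at 147, 146, 169.7 and 153 CPM and at 204, 213, 289.7 and 181 CPM without overlap (0.46 ± 0.15, adjusted p = 0.0540). Gbp7 changed by 0.61 ± 0.20 (adjusted p = 0.0640) and Gbp3 by 0.34 ± 0.29 (adjusted p = 0.452). Without Gbp6 and Gbp10, 3 of 7 genes were called, and their median was 1.28, against −0.03 over all genes. By levels, 6 of the 9 had groups that did not overlap, against 14.6% of all genes tested. Gbp4, Gbp5, Gbp6 and Gbp8 were called whichever library was left out, Gbp2 also without library 6 (1.79, adjusted p = 0.00587) or 30, Gbp7 without library 6 or 14, Gbp9 without library 30, and Gbp10 fell under the count minimum without library 10, 14 or 26. DESeq2 called 8 of the 9 genes. Over all 8827 genes tested it called 2036 (1129 of them higher), against 1716 by edgeR.

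M-MDSC from tumor showed higher Gbp6 after treatment, and no other gene of the 8 tested was called. Higher calls made up 1.82% of 8360 genes, and calls in either direction 2.88%. Gbp6 was at 7.32, 15, 10.7 and 4.89 CPM in untreated and 33.4, 30.4 and 56.7 CPM in treated libraries, without overlap (1.99 ± 0.37, 3.98-fold, adjusted p = 0.0299), and its untreated mean of 19.8 counts was under the minimum, which it passed through the treated libraries. Gbp10 had 7 counts over the untreated and 107 over the treated libraries, a ratio of 12.5 (95% counting interval 5.84 to 31.7), and its groups of 0.549 to 1.95 and 9.37 to 11.8 CPM did not overlap. Gbp8 was at 49.0, 56.6, 51.9 and 92.9 CPM and at 89.2, 180.2 and 74.5 CPM (0.84 ± 0.35, adjusted p = 0.240), with the highest value in library 28, which also had the highest macrophage marker sum (7721 CPM). Gbp2, Gbp3, Gbp5 and Gbp9 gave 0.09, 0.07, −0.04 and 0.10 on the log2 scale, and Gbp4 and Gbp7 0.49 (adjusted p = 0.472) and 0.28 (adjusted p = 0.598). Gbp5, for example, was at 82.3 to 259 CPM in untreated and 118 to 175 CPM in treated libraries. Over the 7 genes without Gbp6, 0 were called and the median was 0.10, against −0.00 over all genes. By levels, 1 of the 8 genes tested, Gbp6, had groups that did not overlap, against 11.3% of all genes tested. Gbp6 lost its call without library 4, 20, 24 or 32 (adjusted p from 0.0623 to 0.114). Here too M marker sums were lower with treatment (9065 to 12761 CPM against 2762 to 5186 CPM) and endothelial sums higher (19.6 to 41.4 CPM against 72.1 to 150 CPM), a part that was not tested.

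**Figure D3:**
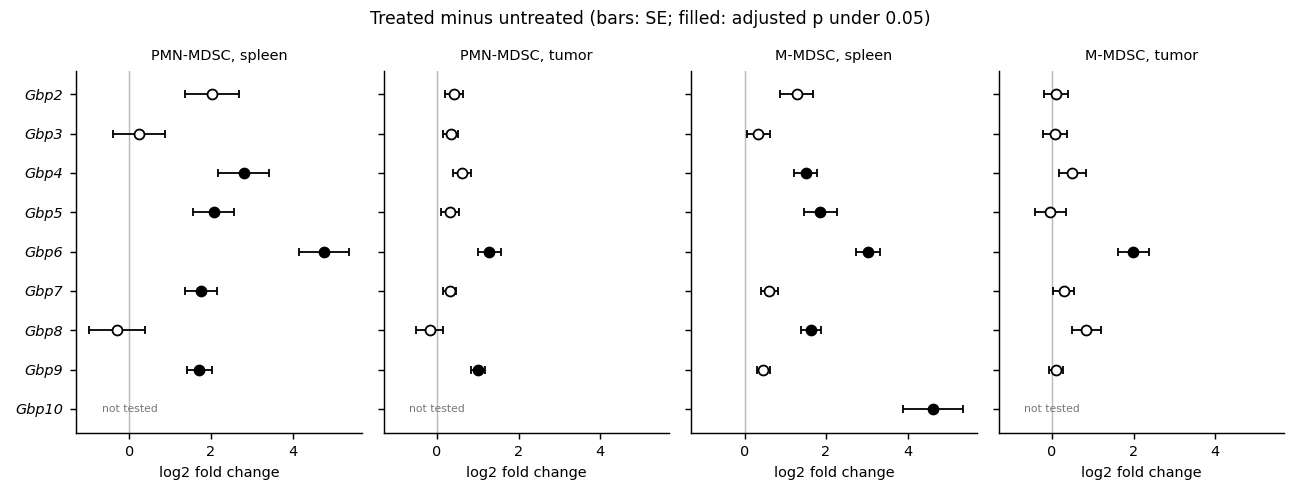
Log2 fold change of treated over untreated libraries (± SE) of each guanylate-binding protein in PMN-MDSC and M-MDSC from spleen and tumor; filled points passed an adjusted p of 0.05 in edgeR's quasi-likelihood F-test. Gbp6 is filled in all 4 populations, with 4.77, 1.28, 3.03 and 1.99, and Gbp3 in 0 of them, with 0.24, 0.33, 0.34 and 0.07. Except in PMN-MDSC from tumor, Gbp6 passed the count minimum of the test only through the treated libraries.

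Gbp6 was called in all 4 populations and Gbp3 in 0 of them by edgeR. In all but PMN-MDSC from tumor, Gbp6 passed the count minimum only through the treated libraries, so this is no contrast between the genes. Because Gbp6, Gbp10 and Gm43302 share sequence, their counts were also summed. The sum rose by 4.89 in PMN-MDSC from spleen (adjusted p = 0.00397), 1.52 in PMN-MDSC from tumor (adjusted p = 0.00810), 3.50 in M-MDSC from spleen (adjusted p = 0.000115) and 2.28 in M-MDSC from tumor (adjusted p = 0.0139). This sum was chosen after the data were seen, and like Gbp6 it averaged under the count minimum in untreated libraries of all but PMN-MDSC from tumor. At the stricter threshold of the study, an adjusted p under 0.001 and at least 2-fold, applied here to edgeR where the study used DESeq2, 0, 0, 1 and 0 of the 9 genes were called higher in these 4 populations, in the same order, where 0.0413%, 0.241%, 1.73% and 0.012% of all genes were. The gene called was Gbp6.

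Whether a treatment effect differed between spleen and tumor was tested by an interaction term. In PMN-MDSC, the effect on Gbp6 was smaller in tumor than in spleen by 3.48 ± 0.63 on the log2 scale (log2 difference −3.48, adjusted p = 0.0106). Calls of a smaller effect in tumor made up 0.336% of 8047 genes, and calls in either direction 3.5%. Treated PMN-MDSC had overlapping Gbp6 levels in spleen (14.9 to 52.7 CPM) and tumor (26.3 to 47.9 CPM), whereas untreated levels were 0.608 to 2.82 CPM in spleen and 11.6 to 20.2 CPM in tumor. The difference was called whichever of the 15 libraries was left out, and it was −3.36 (adjusted p = 0.0144) for the sum of Gbp6, Gbp10 and Gm43302. The untreated spleen libraries averaged under the count minimum for Gbp6 (15 counts in all). Gbp4 (−2.20, adjusted p = 0.0738), Gbp7 (−1.42, adjusted p = 0.0752), Gbp5 (−1.74, adjusted p = 0.11) and Gbp2 (−1.56, adjusted p = 0.284) also had negative differences and did not pass. DESeq2 called 4 of the 9 genes, and 501 of all 8047 genes tested, against 282 by edgeR. Without library 9, Gbp4, Gbp5, Gbp6 and Gbp7 were called, without library 5 Gbp2, Gbp5 and Gbp6, and without library 1 Gbp4 and Gbp6. Of all genes tested, 5.49%, 3.54% and 2.6% were called in these fits.

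In M-MDSC, 0 of the 8 genes tested differed in their treatment effect between tumor and spleen by edgeR, where 0.79% of 8730 genes did. At an unadjusted p under 0.05, 3 genes did (Gbp2, Gbp5 and Gbp6), against 14.2% of all genes. The largest of these differences was that of Gbp5, −1.89 (adjusted p = 0.157). DESeq2 called 1 of the 8 genes, and 307 of all 8730 genes tested, against 69 by edgeR.

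The effects in M-MDSC and PMN-MDSC were compared in the same way. In spleen, the effect on Gbp9 was smaller in M-MDSC than in PMN-MDSC (−1.34 ± 0.36, adjusted p = 0.0307), where 4.41% of 8417 genes were called in that direction and 10.9% in either. Gbp9 started at 146 to 169.7 CPM in untreated M-MDSC and 90.1 to 115 CPM in untreated PMN-MDSC. This call was lost without library 2, 10, 14, 17, 18, 21, 22, 25 or 30. Gbp8 gave 1.84 ± 0.76 (adjusted p = 0.129) and Gbp6 −1.83 (adjusted p = 0.101). In tumor, 0 of the 8 genes differed by edgeR, where 0.0239% of 8385 genes did, and at an unadjusted p under 0.05, 1 gene did (Gbp9), against 8.59% of all genes. Gbp9 gave −0.89 (adjusted p = 0.394 by edgeR), and DESeq2 called this gene, where it called 22 of the 8385 genes tested.

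Without treatment, PMN-MDSC from tumor had higher levels than those from spleen for 5 of the 7 genes tested. Calls were common in this comparison: 29.4% of 7971 genes were called higher in tumor and 59.1% in either direction. Gbp5 was at 37.8, 63.3, 20.6 and 32 CPM in spleen and 155, 163, 106 and 133 CPM in tumor (1.97 ± 0.33, adjusted p = 0.000605). Gbp4 was at 6.60 to 27.1 CPM in spleen and 48.0 to 80.9 CPM in tumor (2.04 ± 0.43, adjusted p = 0.00218). Gbp8 was at 69.8, 14.6, 11.6 and 15.3 CPM in spleen and 99.7, 121, 85.1 and 73.4 CPM in tumor (1.84 ± 0.51, adjusted p = 0.0103). Gbp3 (1.15 ± 0.42, adjusted p = 0.0348) and Gbp7 (0.69 ± 0.25, adjusted p = 0.0337) were closer to the threshold.

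Of these 5, Gbp3 alone had overlapping groups, at 21.7 to 111 CPM in spleen and 100.3 to 129 CPM in tumor. Of the 7 genes tested, 4 were higher in every tumor than in every spleen library, as 23.8% of all genes tested were. Gbp6 and Gbp10, which were not tested, were higher in every tumor library as well. Gbp6 was too low for the test, with 15 counts over the spleen and 118 over the tumor libraries, a ratio of 11.5 (95% counting interval 6.69 to 21.2). The sum with Gbp10 and Gm43302, also under the minimum, was at 0.608 to 3.11 CPM in spleen and 12.5 to 23.9 CPM in tumor. Gbp2 (0.33, adjusted p = 0.593) and Gbp9 (−0.23, adjusted p = 0.307) were not called. Without library 5, Gbp2 was called (1.30, adjusted p = 0.000685). Gbp3 lost its call without library 5, 7, 17, 21 or 23, and Gbp7 without library 7, 21 or 23. In the same comparison the macrophage marker sum was 263 to 763 CPM in spleen and 2699 to 3415 CPM in tumor, the M marker sum 796 to 2274 and 4256 to 8348 CPM, and the epithelial marker sum 0 to 1.82 and 89.5 to 576 CPM. Their part in the differences was not tested.

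Between M-MDSC from tumor and spleen, 2 of the 7 genes tested were called. Higher in tumor were Gbp8, at 23.4, 24.4, 23.6 and 14.9 CPM in spleen and 49.0, 56.6, 51.9 and 92.9 CPM in tumor (1.56 ± 0.26, adjusted p = 0.000755), and Gbp7 (0.62 ± 0.19, adjusted p = 0.0297). Calls of a higher level in tumor made up 15.7% of 8298 genes and calls in either direction 28.4%. Both genes were without overlap between the organs, as were 15.1% of all genes tested in that direction. Gbp7 lost its call without library 2, 8, 18 or 22. The remaining 5 genes tested changed by 0.06 to 0.77 on the log2 scale without a call, and Gbp2 was called only without library 6 (1.22, adjusted p = 0.00682). Macrophage marker sums were 194 to 259 CPM in spleen and 1461 to 2172 CPM in tumor, M marker sums 5102 to 7813 and 9065 to 12761 CPM, PMN marker sums 3598 to 8682 and 250.7 to 833 CPM, and epithelial marker sums 0.442 to 6.96 and 14.1 to 226 CPM. Their part was not tested.

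**Figure D4:**
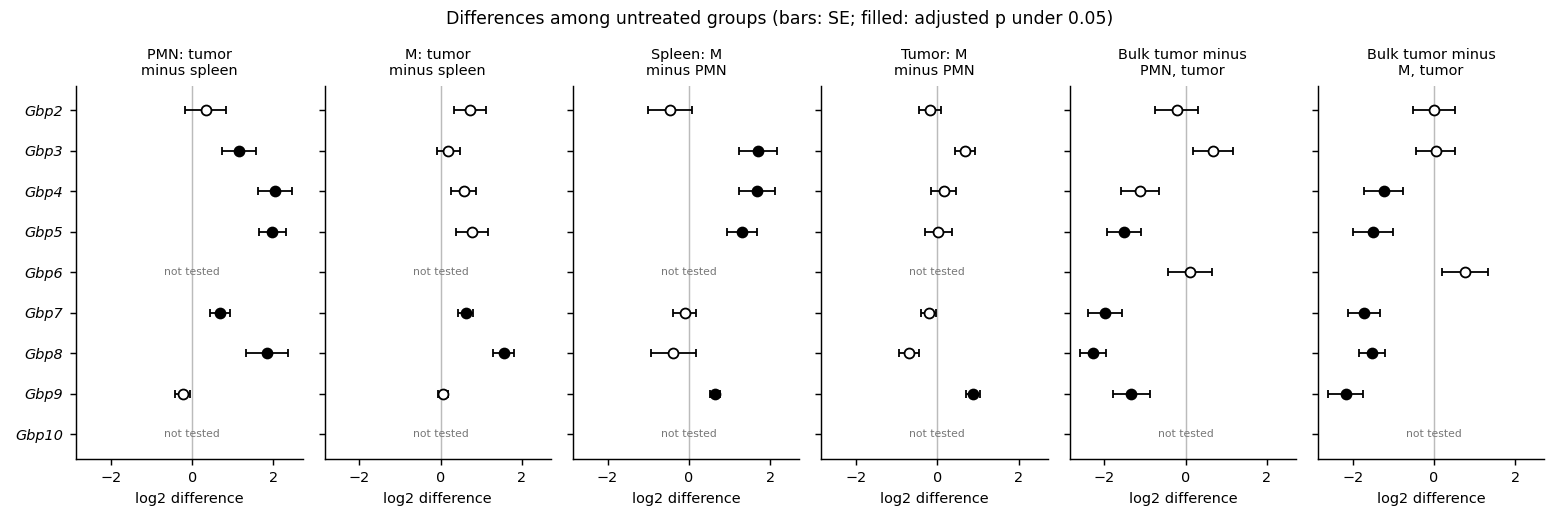
Log2 differences (± SE) of each guanylate-binding protein between untreated groups: tumor against spleen within each MDSC type, M-MDSC against PMN-MDSC within each organ, and bulk tumor against each MDSC type from tumor; filled points passed an adjusted p of 0.05. Gbp8 is higher in tumor than in spleen in both MDSC types (1.84 and 1.56), and Gbp9 is higher in M-MDSC than in PMN-MDSC in both organs (0.64 and 0.88).

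Between the MDSC types of untreated mice, Gbp9 was higher in M-MDSC in both organs. In spleen it was at 147, 146, 169.7 and 153 CPM in M-MDSC and 115, 100.4, 90.1 and 100.4 CPM in PMN-MDSC (0.64 ± 0.13, adjusted p = 0.00162). In tumor it was at 149, 153, 149.5 and 175 CPM and at 92.9, 90.7, 67.5 and 70.7 CPM (0.88 ± 0.17, adjusted p = 0.00509). Libraries of the cell types overlapped in neither organ, and the gene was called whichever library was left out. Macrophage marker sums were 263 to 763 CPM in PMN-MDSC and 194 to 259 CPM in M-MDSC from spleen, and 2699 to 3415 and 1461 to 2172 CPM in those from tumor, and their part was not tested. Groups without overlap and higher in M-MDSC were found for 3 of the 7 genes tested in spleen and 1 of 7 in tumor, against 29.7% and 11.9% of all genes tested. Gbp6, which was not tested in spleen, had no overlap there either. In spleen, M-MDSC also had higher Gbp3 (1.70 ± 0.46, adjusted p = 0.00915), Gbp4 (1.67 ± 0.43, adjusted p = 0.00741) and Gbp5 (1.31 ± 0.37, adjusted p = 0.0106), so that 4 of 7 genes were called where 33.4% of 8579 genes were called higher and 64.4% in either direction.

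In tumor, Gbp9 was the 1 gene called of 7 tested, where 5.73% of 7623 genes were called higher in M-MDSC and 13% in either direction. Gbp3 (0.68, adjusted p = 0.0942) and Gbp8 (−0.71, adjusted p = 0.0811) were not called, though Gbp3 was without library 20 (0.87, adjusted p = 0.0292) and Gbp8 without library 24 (−0.96, adjusted p = 0.00699). In spleen, Gbp8 gave −0.39 in all libraries and 0.67 without library 1 (adjusted p = 0.0332), so its direction rested on that library.

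Bulk tumor of untreated mice held less Gbp5, Gbp7, Gbp8 and Gbp9 than both MDSC types sorted from tumor, whereas Gbp2, Gbp3 and Gbp6 were not called in either comparison. Fewer cells of a type and less RNA per cell cannot be told apart in bulk samples. Against PMN-MDSC from tumor, lower calls made up 32.8% of 11138 genes and calls in either direction 69.7%, and against M-MDSC from tumor 31% of 11022 genes and 69.2%. Gbp8 was at 10.3, 29.4, 28.1 and 25.8 CPM in bulk tumor, below every untreated MDSC library from tumor (−2.27 ± 0.32, adjusted p = 6.77e-05, against PMN-MDSC, and −1.53, adjusted p = 0.00149, against M-MDSC). In all, 5 of the 9 genes were lower in every bulk library than in every PMN-MDSC library and 3 than in every M-MDSC library, against 25.6% and 25.7% of all genes tested. Gbp7 was at 21.2, 67.0, 48.3 and 107 CPM (−1.99 ± 0.41, adjusted p = 0.00161, and −1.72, adjusted p = 0.00231). Gbp9 was at 8.78, 41.5, 47.7 and 53.3 CPM (−1.33 ± 0.46, adjusted p = 0.025, and −2.18, adjusted p = 0.000843). Gbp5 was at 17.2, 74.6, 58.5 and 83.0 CPM (−1.51 in both, adjusted p = 0.00893 and 0.0185). Gbp4 was called against M-MDSC (−1.24, adjusted p = 0.0371) and not against PMN-MDSC (−1.12, adjusted p = 0.0562).

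Gbp2 in bulk tumor, at 37.8, 259, 215 and 314 CPM, and Gbp3, at 61.7, 421, 179.9 and 181 CPM, spanned the levels of the sorted cells, with log2 differences of −0.22 and 0.67 against PMN-MDSC and 0.00 and 0.04 against M-MDSC. The sum of Gbp6, Gbp10 and Gm43302 gave 0.33 (adjusted p = 0.63) and 0.99 (adjusted p = 0.16). Library 41 was the lowest bulk library for all 9 genes, and for Gbp10 it held 0 CPM. Its summed CPM of the 9 genes was 168, against 639 to 962 in the other 3 libraries. Its T cell markers summed to 8.11 CPM (others 25.9 to 39.5) and its NK cell markers to 0.405 CPM (others 1.51 to 2.33), and their part was not tested. Without it, Gbp3 was higher than in PMN-MDSC (1.0, adjusted p = 0.0158), Gbp4 lower (−0.77, adjusted p = 0.0113), and Gbp6 higher than in M-MDSC (1.12, adjusted p = 0.0259). Against M-MDSC, Gbp6 passed the count minimum only through bulk tumor, so it could pass only by differing. Gbp9 lost its call against PMN-MDSC without library 3 or 7. Against M-MDSC, the call of Gbp5 was lost without library 8 and that of Gbp4 without library 8, 24, 42 or 46. The neighbour Gbp2b was at 22, 218, 140.1 and 201 CPM in bulk tumor and at most 45.5 CPM in any MDSC library, a log2 difference of 2.48 against PMN-MDSC (adjusted p = 0.0180) and 4.13 against M-MDSC (adjusted p = 0.00119). With 59 counts over the M-MDSC libraries, Gbp2b too passed the count minimum against M-MDSC only through bulk tumor. Gbp11 was at most 5.71 CPM in any library. In bulk tumor, PMN markers summed to 10.7 to 26.4 CPM, with Ly6g and Retnlg at 0 in every library, and the 4 epithelial markers to 3709.8 to 5519 CPM.

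**Figure D5:**
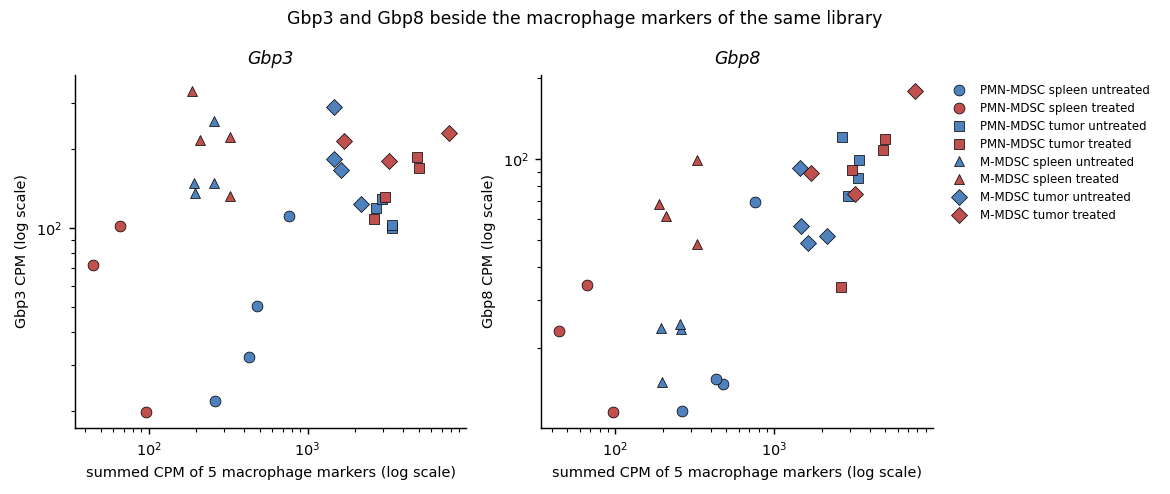
Level of Gbp3 and Gbp8 (CPM, log axis) against the summed CPM of 5 macrophage markers (log axis) in each of 30 MDSC libraries, colored by group. MDSC libraries from tumor lie at 1461 to 7721 CPM of the markers and 33.5 to 180.2 CPM of Gbp8, and those from spleen at 44.6 to 763 and 11.6 to 99.7 CPM, where treated M-MDSC from spleen reach 48.4 to 99.7 CPM of Gbp8 at 189 to 327 CPM of the markers.

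Gbp3 and Gbp8 were set against the macrophage markers, and against no other marker list. Like Gbp2, they were not called after treatment in PMN-MDSC of either organ. Gbp3 and Gbp8 were both highest in library 1 among untreated PMN-MDSC from spleen, as were Gbp4, Gbp6, Gbp9 and Gbp10. Across all 30 MDSC libraries, every tumor library was above every spleen library in the markers, while their Gbp8 levels overlapped. The lowest Gbp8 in tumor was 33.5 CPM in library 31, and treated M-MDSC from spleen had Gbp8 at 48.4 to 99.7 CPM, in the range of tumor libraries. Marker sums of treated M-MDSC from spleen were 189 to 327 CPM, against 194 to 259 CPM in untreated ones. Among the treated ones, library 26 was highest in both Gbp8 and marker sum. The part of macrophages was not tested. For Gbp3, M-MDSC from spleen (133 to 335 CPM) stood as high as M-MDSC from tumor (123 to 291 CPM) at a lower marker level. The plot describes libraries that also share organ, cell type and treatment.

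A list of 46 genes around the family (interferon signal, immunity-related GTPases, targeting of vacuoles, inflammasome, and prenylation, by which some guanylate-binding proteins get their anchor) was counted in each treatment comparison. In PMN-MDSC from spleen 12 rose and 1 fell of 39 tested, in PMN-MDSC from tumor 9 rose and 0 fell of 41, in M-MDSC from spleen 16 rose and 1 fell of 41, and in M-MDSC from tumor 3 rose and 0 fell of 41. The shares of all genes called higher, against which these and the following counts are read, were 6.1%, 2.29%, 9.96% and 1.82% in this order. The immunity-related GTPases, which act with guanylate-binding proteins at parasite vacuoles, gave 4 of 7, 3 of 8, 8 of 8 and 3 of 8 calls, all higher, with median log2 fold changes of 2.46, 1.19, 1.54 and 1.17. These include genes that passed the count minimum only through treated libraries and could pass only by differing. Among them are Tgtp1 in PMN-MDSC from spleen and Iigp1 in M-MDSC from spleen. The inflammasome list had 3, 1, 2 and 0 higher calls of 7. For the vacuole list the calls were 3, 2, 2 and 0 of 10, all higher, and the prenylation list had 0 of 2, 3, 3 and 3 genes tested by edgeR. There Fnta, a farnesyltransferase subunit, gave −0.39, −0.16, −0.22 and 0.47, Icmt −0.44, −0.02 and 0.16 in both PMN-MDSC groups and in M-MDSC from tumor, and Pggt1b −0.20 in M-MDSC from spleen.

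Among the immunity-related GTPases with the smallest adjusted p, Tgtp1 in PMN-MDSC from spleen went from 0.282 to 4.87 CPM up to 22.3 to 95.7 CPM (5.03 ± 0.79, adjusted p = 0.00727). Its treatment effect was smaller in tumor than in spleen (−3.62, adjusted p = 0.0289). These untreated levels are near the floor of the counts, and the gene passed the count minimum through the other groups. In M-MDSC, Iigp1 rose in spleen from 1.04 to 8.54 CPM up to 78.6 to 176 CPM (5.01 ± 0.56, adjusted p = 0.000533) and in tumor from 10.7 to 26.7 CPM up to 103 to 156 CPM (2.81 ± 0.32, adjusted p = 0.00517). In PMN-MDSC from spleen it was at 0.776 to 7.34 CPM without and 2.18 to 4.01 CPM with treatment, and the effects in M-MDSC and PMN-MDSC from spleen differed by 5.10 (adjusted p = 0.00664). In spleen Iigp1 passed the count minimum only through treated M-MDSC, the group where it is high. Tgtp2 rose in M-MDSC from spleen (2.63, adjusted p = 0.000874), Irgm1 in PMN-MDSC from spleen (2.46, adjusted p = 0.0174) and tumor (1.26, adjusted p = 0.00755), Ifi47 in PMN-MDSC from tumor (1.31, adjusted p = 0.0081), and Irgm2 in M-MDSC from tumor (1.13, adjusted p = 0.0307).

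On the signal side, 2, 3, 4 and 0 of the 13 genes tested of the interferon signal list rose and 1, 0, 1 and 0 fell, in the order of populations above. Stat2, a subunit of the factor that binds the ISRE, rose in PMN-MDSC from spleen (2.67 ± 0.40, adjusted p = 0.00651) and tumor (1.42, adjusted p = 0.00724) and in M-MDSC from spleen (1.46, adjusted p = 0.0026). Nlrc5, a transactivator of MHC class I genes, rose in PMN-MDSC from spleen (1.99, adjusted p = 0.027) and Irf9, another subunit, in PMN-MDSC from tumor (1.08, adjusted p = 0.0163). Ifngr1, a chain of the interferon-γ receptor, fell by 1.17 in M-MDSC from spleen (adjusted p = 0.00329) and gave −0.90 in M-MDSC from tumor (adjusted p = 0.0559), where Jak2 gave −0.86 (adjusted p = 0.0657). Irf1 gave 0.15, 0.10, 0.41 and −0.43 in PMN-MDSC from spleen and tumor and M-MDSC from spleen and tumor, none of them called. Interferon-γ itself (Ifng) was at 0 to 2.07 CPM in all libraries and was not tested.

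Of the genes for targeting vacuoles, Ube2l6, which conjugates the interferon-induced modifier ISG15, rose in PMN-MDSC from spleen (3.52 ± 0.21, adjusted p = 0.000436) and tumor (2.28, adjusted p = 0.000858) and in M-MDSC from spleen (2.15, adjusted p = 0.000228), and gave 1.34 in M-MDSC from tumor (adjusted p = 0.0569). Trim21 rose in PMN-MDSC from spleen (2.03, adjusted p = 0.00303) and tumor (1.06, adjusted p = 0.0471), and the autophagy receptor Sqstm1 in M-MDSC from spleen (0.75, adjusted p = 0.00347), while it gave 0.74 in M-MDSC from tumor (adjusted p = 0.126). Casp4, the caspase that senses bacterial lipopolysaccharide, rose in PMN-MDSC (1.66, adjusted p = 0.0116) and M-MDSC from spleen (0.75, adjusted p = 0.0148). Casp1 rose in PMN-MDSC from spleen (1.42, adjusted p = 0.016) and tumor (1.03, adjusted p = 0.0249), and Gsdmd, which forms the pore of pyroptosis, in M-MDSC from spleen (0.66, adjusted p = 0.00736). In PMN-MDSC from tumor Pycard gave 0.41 (adjusted p = 0.258), and in M-MDSC from tumor Aim2 (0.72, adjusted p = 0.0883) and Nlrp3 (−1.20, adjusted p = 0.156) were not called.

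The untreated libraries 5, 6, 7 and 8 held the highest Gbp2 of their groups, with 401 CPM in PMN-MDSC from spleen, 223 CPM in M-MDSC from spleen, 267 CPM in PMN-MDSC from tumor and 268 CPM in M-MDSC from tumor. Library 6 was the highest of its group for 8 of the 9 genes, library 7 for 6, library 8 for 5 and library 5 for 2, whereas library 1 was the highest of untreated PMN-MDSC from spleen for 6. Library 5 also led its group in Irf1 (648 CPM, against 243 to 317 CPM) and Igtp (123 CPM, against 36.1 to 50.9 CPM), and library 6 in Irf1 (231 CPM, against 98.1 to 119.7 CPM). Whether these 4 libraries come from 1 mouse is not given by the column names. In treated PMN-MDSC from spleen, library 25 was the highest for all 9 genes, with a summed 2740 CPM, against 798 and 2114 CPM in libraries 9 and 29.

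As a description, the genes with the most similar pattern were sought for each guanylate-binding protein by Pearson's r of log2(CPM + 1) over the 30 MDSC libraries, among 8533 genes; libraries share organ, cell type and treatment. Gbp4 and Gbp5 were each other's closest gene (r = 0.91), although they lie on different chromosomes. After these, Gbp4 was closest to Gbp6 (r = 0.88) and Nlrc5 (r = 0.88), and Gbp5 to Nlrc5 (r = 0.89) and Cxcl10 (r = 0.88), an interferon-induced chemokine. Gbp2 was closest to Igtp (r = 0.86), H2-Q4 (r = 0.79) and Nlrc5 (r = 0.78). Gbp6 was closest to Lgals3bp (r = 0.92), Ifi44 (r = 0.92) and H2-Q7 (r = 0.91). Gbp9 was closest to Ifi204, Ifi27l2a and Slfn5, with r between 0.90 and 0.91.

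Gbp3 was closest to Clec4a1, Ehd4 and Lat2, with r between 0.87 and 0.88. Gbp8 was closest to Myo1e (r = 0.88), Cp (r = 0.85) and Iigp1 (r = 0.85). Gbp7 had its closest gene, Trip12, at r = 0.75. Among the guanylate-binding proteins themselves, r was 0.0044 between Gbp8 and Gbp9, whose annotated genes overlap on chromosome 5, and 0.07 between Gbp3 and Gbp7, neighbours on chromosome 3.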

How the data were processed

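The deposited table holds raw fragment counts, genes in rows and 1 library a column, made by the authors. By the methods and labels, reads of stranded total RNA libraries, made by PCR without molecular identifiers, were mapped to GRCm38 (mm10) with ContextMap and BWA and counted by strand with featureCounts (Subread 1.4.6-p3) on Gencode v16. Titles number the mice, and treated and untreated mice differ, but columns carry a running number (libraries of 1 mouse in several groups were thus treated as independent) and were assigned to groups by cell type, organ and treatment in their names. Of 35 libraries 1 was left out (10 counts). The 48 pairs within groups differed by more than counting error (chi-square per degree of freedom 6.19 to 49.5), and 0 were identical. GENCODE M21 (GRCm38) gave symbols, positions and lengths of exons for 53274 identifiers.

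CPM was scaled by TMM over all 34 libraries. Each comparison was fitted on its own libraries (interactions over 4 groups) with edgeR 4.0.16 (R 4.3.3): TMM, robust quasi-likelihood F-test, two-sided, for genes whose counts averaged 25 or more, SE from the F statistic. Alternatives were DESeq2 1.42.0, no filter, RLE and upper-quartile scaling, a fit over 4 groups, the study's threshold (adjusted p under 0.001, at least 2-fold), each library left out, and Gbp6, Gbp10 and Gm43302 summed (added after seeing the data). The code was tested on simulated data. All 9 genes are described in every group; of the 46 surrounding genes, Irf1, Ifng and the 2 of each list with the smallest adjusted p in a treatment comparison are named where they bear on the family; the rest are counted only, and 1 result is not reported here. The members and lists were chosen with earlier results of these data known. Count ratios have exact 95% intervals that cover counting error only; at 793070 counts, the smallest library, 3 counts are the floor taken as detectable.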

Additional observations from a re-analysis of the deposited data

Results flagged for a closer look

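Of 63 groups of 4 libraries and a gene, 11 had a library far from the other 3 by Dixon's criterion, which chance meets in about 1 in 20 groups. In untreated PMN-MDSC from spleen, Gbp2 was at 401 CPM in library 5 against 80.0 to 101 CPM, and library 1 stood out with Gbp6 at 2.82 CPM (others 0.608 to 0.776), Gbp8 at 69.8 CPM (others 11.6 to 15.3) and Gbp10 at 0.282 CPM (others at 0), which is a single count, so that the share given by chance does not apply to it. In untreated M-MDSC from spleen, library 6 stood out with Gbp2 at 223 CPM (others 76.5 to 85.9) and Gbp3 at 256 CPM (others 136 to 149), and library 22 with a low Gbp8 of 14.9 CPM (others 23.4 to 24.4). In tumor, Gbp4 was at 80.9 CPM in library 7 of untreated PMN-MDSC (others 48.0 to 48.5), Gbp5 at 252 CPM in library 31 of treated PMN-MDSC (others 157 to 163) and Gbp9 at 175 CPM in library 24 of untreated M-MDSC (others 149 to 153). In bulk tumor, Gbp4 was at 7.30 CPM in library 41 (others 35.3 to 41.1).

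The treatment effect differed between groups by an interaction term for 2 genes. For Gbp6 in PMN-MDSC it was smaller in tumor than in spleen (log2 difference −3.48, adjusted p = 0.0106; −3.36, adjusted p = 0.0144, summed with Gbp10 and Gm43302) on 15 counts of Gbp6 over the untreated spleen libraries, under the count minimum that the other groups met, and for Gbp9 in spleen it was smaller in M-MDSC than in PMN-MDSC (−1.34, adjusted p = 0.0307), both by edgeR.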

How the results depend on the processing

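No paired analysis was possible because the columns carry a running number and no mouse number, and treated and untreated mice are different mice. In cell type, organ and treatment, the columns follow the order of the titles, which do number the mice. Pairing by this order, which no label states, was not fitted. The p-values between organs, between cell types, against bulk tumor and of the interactions therefore take no account of mice shared by the groups. At the study's threshold applied to edgeR, 0, 0, 1 and 0 of the 9 genes were called after treatment in spleen and tumor PMN-MDSC and in spleen and tumor M-MDSC, against 5, 2, 5 and 1. DESeq2 called 8 in M-MDSC from spleen, and in the interactions 4 (PMN-MDSC, tumor against spleen), 1 (M-MDSC, tumor against spleen) and 1 (M-MDSC against PMN-MDSC in tumor). Over all genes, DESeq2 called 2036 of 8827, 501 of 8047, 307 of 8730 and 22 of 8385 there, against 1716, 282, 69 and 2 by edgeR. The fit over 4 groups called 1 in PMN-MDSC from tumor, and 193 of 8047 genes in all, against 279 of 8308 in the main fit. With no filter, 3 were called in M-MDSC from tumor, 3 between M-MDSC and PMN-MDSC of untreated tumors, and 4, 2 and 5 in the interactions of PMN-MDSC, M-MDSC and spleen. Over all genes, no filter gave 1064 calls of 25966, 1658 of 27309, 676 of 33775, 659 of 29825 and 1590 of 31182. The main fits gave 241 of 8360, 990 of 7623, 282 of 8047, 69 of 8730 and 914 of 8417. For all genes in PMN-MDSC from spleen, the median log2 fold change was −0.16 with upper-quartile scaling and −0.54 with no filter, against 0.01. The Gbp3 interaction in spleen turned from −0.01 to 0.043 with DESeq2 and 0.10 with no filter. The cause of these shifts was not tested.

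Leaving out each library in turn, the number of genes called ran from 1 to 6 in PMN-MDSC from spleen, 1 to 3 in PMN-MDSC from tumor, 4 to 7 in M-MDSC from spleen and 0 to 1 in M-MDSC from tumor after treatment. The share of all genes called moved as well, from 4.18 to 13.4%, 1.32 to 3.29%, 12.7 to 20.5% and 0.366 to 6.33%. Between untreated groups the number ran from 3 to 5 (PMN-MDSC, tumor against spleen), 1 to 3 (M-MDSC, tumor against spleen), 4 to 5 and 1 to 2 (M-MDSC against PMN-MDSC in spleen and tumor), 3 to 6 (bulk tumor against PMN-MDSC) and 3 to 6 (bulk tumor against M-MDSC). The shares of all genes were 52 to 63%, 22.6 to 32.4%, 57 to 68.5%, 8 to 15.8%, 64.8 to 70% and 64.6 to 71.6%. For the interactions the number was 1 to 4 (PMN-MDSC) and 0 to 3 (spleen), and 0 throughout in M-MDSC and in tumor. The shares of all genes there were 0.926 to 5.49%, 6.7 to 16.5%, 0.0802 to 2.85% and 0 to 0.286%.

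Directions turned for genes without a call in the full set. After treatment, the log2 fold change ran from −0.22 to 0.90 for Gbp3 and −0.68 to 0.74 for Gbp8 in PMN-MDSC from spleen, −0.35 to 0.086 for Gbp8 in PMN-MDSC from tumor, and −0.087 to 0.31, −0.087 to 0.37 and −0.24 to 0.37 for Gbp2, Gbp3 and Gbp5 in M-MDSC from tumor. Between M-MDSC from tumor and spleen it ran from −0.11 to 0.43 for Gbp3 and −0.018 to 0.11 for Gbp9. Between M-MDSC and PMN-MDSC it ran from −0.96 to 0.37, −0.34 to 0.071 and −0.67 to 0.67 for Gbp2, Gbp7 and Gbp8 in spleen, and −0.42 to 0.027, −0.11 to 0.40 and −0.39 to 0.25 for Gbp2, Gbp4 and Gbp5 in tumor. For bulk tumor it ran from −0.50 to 0.15 for Gbp2 and −0.23 to 0.48 for Gbp6 against PMN-MDSC, and −0.16 to 0.37 for Gbp2 and −0.56 to 0.37 for Gbp3 against M-MDSC. In the interactions it ran from −0.53 to 0.58 for Gbp3 and −0.89 to 0.52 for Gbp8 (PMN-MDSC), −0.52 to 0.022 for Gbp3 (M-MDSC), −0.69 to 0.49 for Gbp3 and −0.72 to 0.12 for Gbp5 (spleen), and −0.44 to 0.043, −0.39 to 0.11, −0.57 to 0.037 and −0.29 to 0.14 for Gbp3, Gbp4, Gbp5 and Gbp7 (tumor). Of the 10 comparisons of a pair of groups, Gbp10 reached the count minimum in that of treatment in M-MDSC from spleen only.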
